A study of Homo sapiens with 9 samples.

Results

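The nuclear genes of the mitochondrial respiratory chain and of ATP synthase were followed through the first steps of lineage choice in human embryonic stem cells. Members were the gene symbols of the deposited table that begin with NDUFA, NDUFB, NDUFC, NDUFS or NDUFV and a digit, with UQCR, with COX4 to COX8 and a letter, or with ATP5, and the genes SDHA, SDHB, SDHC and SDHD, leaving out symbols with a hyphen. This gave 86 of 21417 genes: 38 of complex I, 4 of complex II, 9 of complex III, 16 of complex IV and 19 of ATP synthase. The rule uses names alone and no expression value, but it was set with earlier results of these data known. A name is not always a subunit: ATP5S and ATP5SL are factors or relatives of factors, ATP5EP2, ATP5L2 and UQCRHL are copies of other members, and NDUFA4 and NDUFA4L2, counted with complex I by symbol, are now classed with complex IV. Of the 86 members, 80 had a mean of at least 0.5 RPKM (reads scaled by transcript length and by the reads of the library) and were tested among 14473 genes. COX4I2, COX6A2, COX7B2, COX8C, NDUFA4L2 and ATP5L2 were below that minimum.

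The samples were 9 libraries of ribosome-depleted total RNA from H9, a human embryonic stem cell line, 3 for each group. Neuroectoderm, the precursor of the nervous system, was taken on day 5 of culture with NOGGIN at 200 nM and SB431542 at 10 µM. Mesendoderm, the precursor of mesoderm and endoderm, was taken on day 5 of culture with BMP4 at 5 ng/ml in mTeSR1. The undifferentiated cells (hESC), kept on Matrigel in mTeSR1, were taken on day 0, so both derived groups differ from hESC in time as well as in factors. All groups come from the same line, and nothing in the labels says whether libraries of a group are separate cultures. The p-values below therefore rest on a spread among libraries that may be technical.

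The respiratory chain carries electrons from NADH (complex I) and succinate (complex II) through ubiquinone, complex III and cytochrome c to oxygen at complex IV. Complexes I, III and IV pump protons across the inner mitochondrial membrane, and ATP synthase uses their return to make ATP. Most subunits are encoded in the nucleus and imported, and a smaller set is encoded by mitochondrial DNA. Of 13 such mitochondrial genes looked up by symbol, 0 were found in the deposited table, so their transcripts could not be read here. Pluripotent stem cells are known for a high rate of glycolysis beside a working respiratory chain.

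The labels fitted most of their markers. PAX6 averaged 28.4 ± 7.2 RPKM in neuroectoderm (SD, n = 3), with 0.0233 in mesendoderm and 0.0933 in hESC, and T averaged 26.9 ± 3.84 RPKM in mesendoderm (SD, n = 3), with 0.0367 in neuroectoderm and 0.127 in hESC, whereas LHX2, also listed for neuroectoderm, was near 0 in all groups. The 4 trophoblast or amnion markers CDX2, GATA3, TFAP2A and KRT7 summed to 52.7 to 71.6 RPKM in mesendoderm libraries, against 0.73 to 1.24 in neuroectoderm and 4.47 to 7.09 in hESC. Their part in the mesendoderm results was not tested. The endoderm markers SOX17 and FOXA2 summed to at most 0.37 RPKM in any library. The 5 pluripotency markers (NANOG, SOX2, DNMT3B, LIN28A, ZFP42) each had their highest mean in hESC, but several persisted. Their sum was 656 to 695 RPKM in hESC libraries, 353 to 368 in neuroectoderm and 330 to 352 in mesendoderm. ZFP42 averaged 82.6 RPKM in mesendoderm and 83.7 in hESC, and LIN28A 275 in neuroectoderm and 307 in hESC. NANOG fell to 0.127 RPKM in neuroectoderm but averaged 12.2 in mesendoderm, against 22 in hESC. Levels are RNA shares of bulk samples, so fewer cells of a type and less RNA per cell cannot be told apart.

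In each group 1 library stood apart for these genes. Neuroectoderm 1 was the lowest of its group for 74 of the 80 tested members (92.5%, against 58.1% of all tested genes), mesendoderm 1 for 70 (87.5%, against 40.8%) and hESC 2 for 71 (88.8%, against 45.3%). The median member in neuroectoderm 1 was 0.539 of the mean of the other 2 libraries, in mesendoderm 1 it was 0.750 and in hESC 2 it was 0.639. The members' replicates spread more than those of other genes: the median SD of log2(RPKM + 1) was 0.516 in neuroectoderm, 0.256 in mesendoderm and 0.400 in hESC, against 0.203, 0.125 and 0.144 over all tested genes. The same libraries ran low for genes rich in G and C. Across 13872 genes the Spearman correlation of a library's deviation from its group mean with the GC content of the transcript was -0.56 in neuroectoderm 1, -0.29 in mesendoderm 1 and -0.62 in hESC 2, and between 0.20 and 0.59 in the other 6 libraries. The median GC content of the 77 members with a value was 48.7%, against 49.7% over those genes. Among these 77 members, GC content was also correlated with the log2 ratio of the library that stood apart to the mean of the other 2. The Spearman correlation was -0.395 in neuroectoderm 1, -0.194 in mesendoderm 1 and -0.388 in hESC 2. Counts are therefore given with all 9 libraries and without these 3. The 3 were singled out with these data known and not by the labels, and 2 libraries per group remain without them. Leaving them out, or fitting them as a covariate, narrows the spread by choice. Adjusted p-values and counts from those fits, here and below, may be too favourable and are not independent support.

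**Figure D1:**
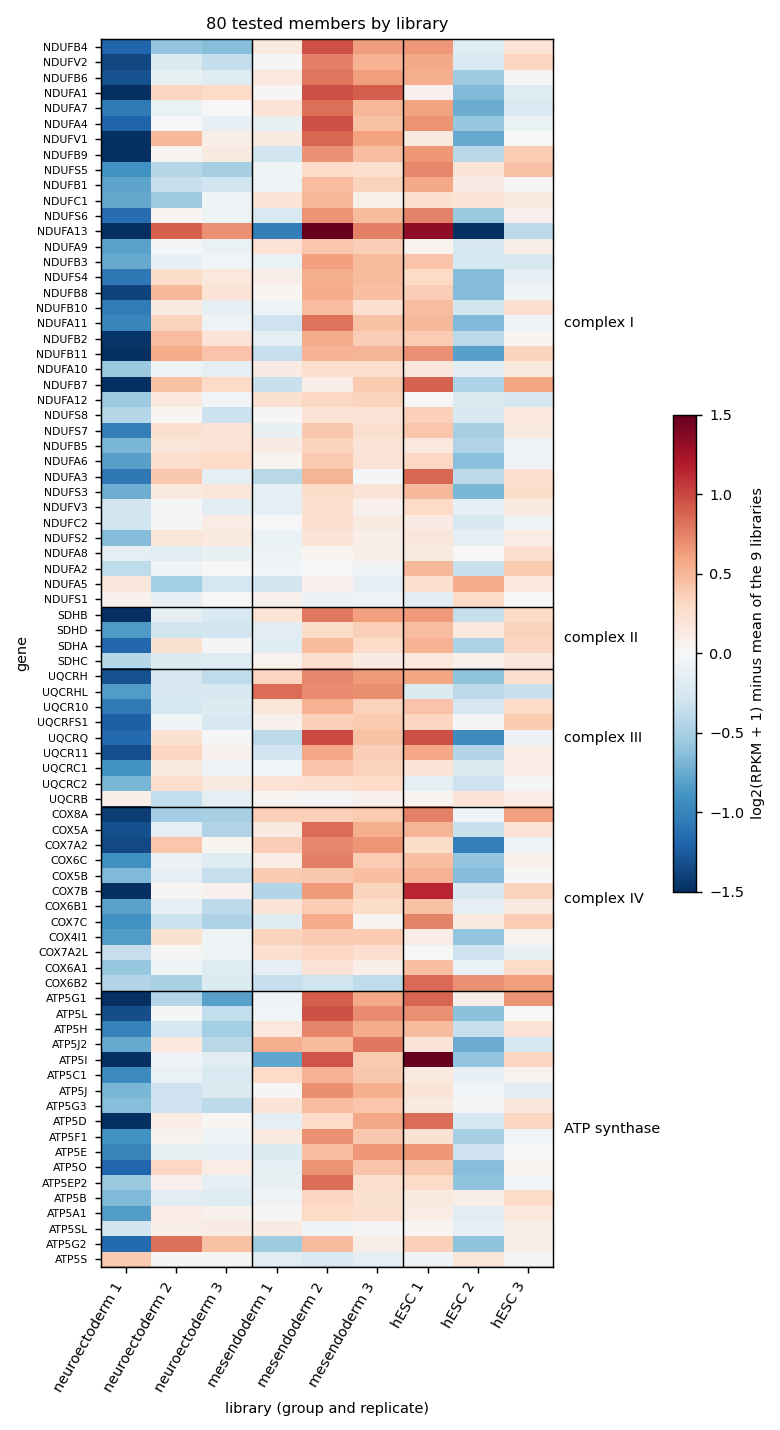
Each row is a tested member and each column a library, with neuroectoderm left, mesendoderm in the middle and hESC right. Colour is log2(RPKM + 1) minus the gene's mean over the 9 libraries, with values beyond 1.5 either way drawn at that limit. Neuroectoderm 1 is the bluest column and was the lowest of its group for 74 of the 80 members, and mesendoderm 2 and 3 are mostly red.

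The levels of the members within a complex differed widely although the subunits are assembled in fixed ratios. The most abundant members by mean over the 9 libraries were NDUFA13 in complex I (84.4 RPKM), SDHB in complex II (21.0 RPKM), UQCRH in complex III (135 RPKM), COX4I1 in complex IV (290 RPKM) and ATP5B, the catalytic beta subunit of ATP synthase (307 RPKM). Complex II had the narrowest range of level, with SDHC lowest at 12.5 RPKM. NDUFA13, an accessory subunit of complex I, had 11.63, 113.19 and 97.86 RPKM in neuroectoderm, 28.86, 187.55 and 102.36 RPKM in mesendoderm and 153.15, 19.95 and 45.48 RPKM in hESC. Its replicates differ more than its groups do. ATP5B had 189.46, 267.46 and 262.06 RPKM in neuroectoderm, 290.37, 375.96 and 352.0 RPKM in mesendoderm and 334.26, 321.88 and 368.36 RPKM in hESC. Neuroectoderm lay below both other groups without overlap, and neither difference passed the test with all libraries (adjusted p = 0.0602 against hESC and 0.0621 against mesendoderm). Both passed without the libraries that stood apart (0.0312 and 0.0191).

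Summed over the 86 members, the level was 1885, 3730 and 3324 RPKM in neuroectoderm, 3759, 5084 and 4696 RPKM in mesendoderm, and 4887, 2903 and 4006 RPKM in hESC. Without the libraries that stood apart the means were 3527, 4890 and 4447 RPKM in these groups. The order of the group means was the same in each of the 5 complexes, mesendoderm above hESC and hESC above neuroectoderm, with all libraries and without those 3. Mesendoderm and hESC overlapped in every complex. The sums weigh abundant genes most, and no test was made on them.

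**Figure D2:**
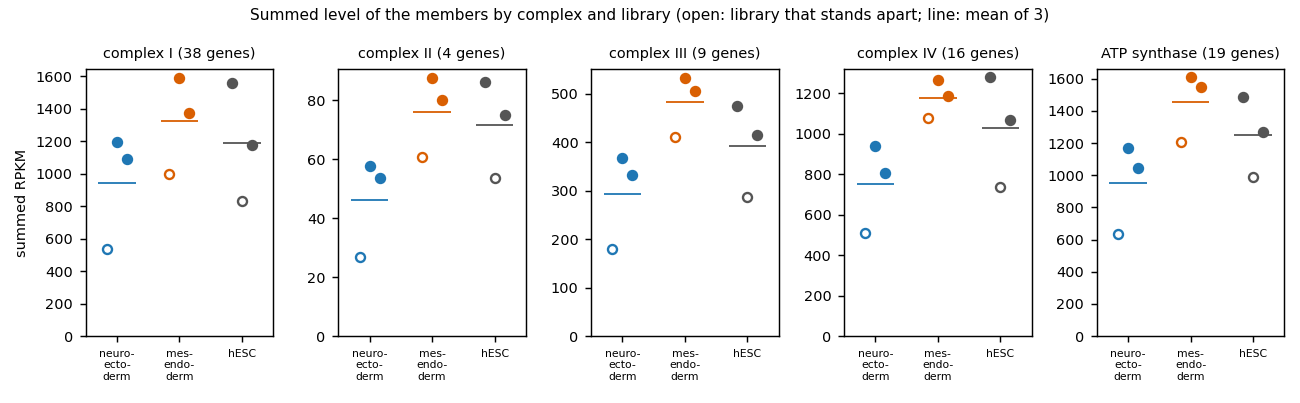
Summed RPKM of the members of each complex, 1 point per library, with neuroectoderm left, mesendoderm in the middle and hESC right. The line is the mean of 3 libraries and open points are neuroectoderm 1, mesendoderm 1 and hESC 2. The open point is the lowest of its group in every panel, and the filled neuroectoderm points lie below the filled points of both other groups except in complex I, where neuroectoderm 2 (1197 RPKM) is just above hESC 3 (1179 RPKM).

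In neuroectoderm against hESC, 13 members in complexes I, II and IV and ATP synthase fell and none rose with all libraries, and without the libraries that stood apart members of all 5 complexes fell. By limma's test at an adjusted p under 0.05, these were 16.2% of the 80 tested members, against 22.3% of all tested genes called lower and 21.9% called higher, so the share of members called was under the background. The direction was shared more widely than the calls: 73 of the 80 differences were below 0, with a median log2 difference of -0.36, against -0.02 over all tested genes. Without the libraries that stood apart, 60 of 80 were below 0 with a median of -0.32 (0.03 over all genes), 31 members were called lower against a background of 27.5%, and 2 were called higher against 30.7%. In the pair of neuroectoderm 1 and hESC 2 alone, 78 of 80 were below 0, against 8286 of all 14473 tested genes. That is 1 library against 1, and members of a library are not replicates. Neuroectoderm 1 also lay further below its own group than hESC 2 did (median ratios 0.539 and 0.639), so the count is no further support. With these library sets as a covariate, 37 members were lower and none higher, against backgrounds of 28.7% and 27.2%, and with a correction for GC content 20 of 77 were lower and none higher, against 25.5% and 27.4%. By complex, all 9 libraries gave 5 lower of 37 tested in complex I, 2 of 4 in complex II, 0 of 9 in complex III (2 at an unadjusted p under 0.05), 4 of 12 in complex IV and 2 of 18 in ATP synthase. Without the libraries that stood apart the counts were 11 lower and 1 higher in complex I, 3 lower in complex II, 4 lower and 1 higher in complex III, 8 lower in complex IV and 5 lower in ATP synthase. One of the calls in complex IV, COX6B2, reached the minimum for testing only through its level in hESC. Without hESC 1 the count of lower members was 8.

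**Figure D3:**
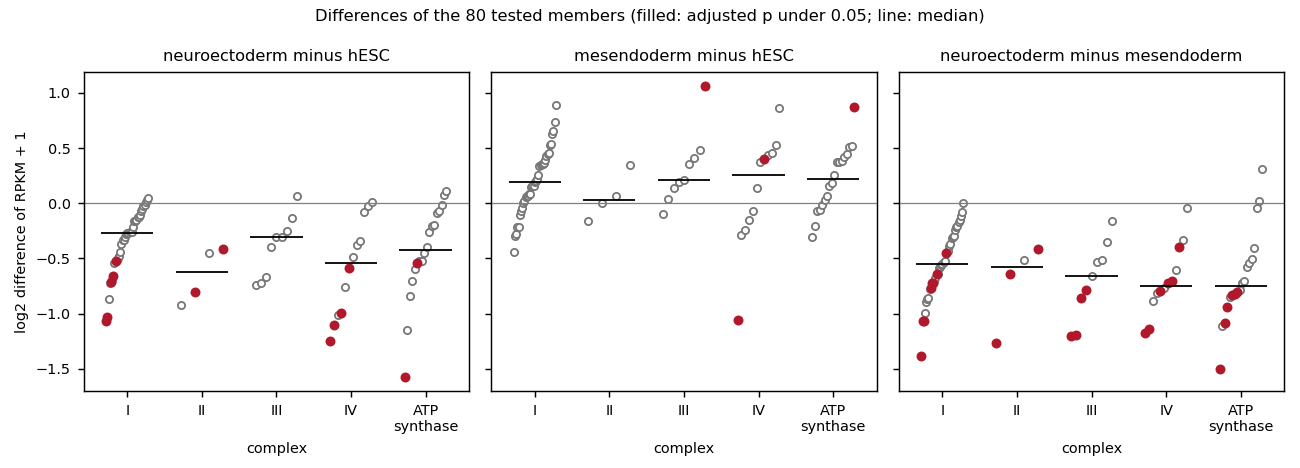
Each point is 1 tested member, placed by complex, with its log2 difference of RPKM + 1 on the vertical axis: neuroectoderm minus hESC, mesendoderm minus hESC and neuroectoderm minus mesendoderm. Filled points have an adjusted p under 0.05 and lines are medians. Medians lie below 0 in every complex in the first and last panels, from -0.27 to -0.63 and from -0.55 to -0.75, and at or above 0.03 in the middle one.

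Among complex I genes, the 7 core subunits, which hold the flavin and iron-sulfur clusters, had no call in neuroectoderm against hESC, and all 5 calls were among the 29 accessory subunits. Leaving out the libraries that stood apart, 2 of 7 core and 9 of 29 accessory subunits were lower. The difference between these classes was not tested. NDUFS5, an accessory subunit on the intermembrane side, had 39.72, 55.77 and 52.93 RPKM in neuroectoderm, against 124.93, 86.44 and 102.46 RPKM in hESC. The groups lay well apart and the level in neuroectoderm was 0.473 of that in hESC (log2 difference -1.06 ± 0.193 SE, adjusted p = 0.00202). NDUFB4, an accessory subunit of the membrane arm, had 13.08, 20.48 and 19.61 RPKM in neuroectoderm, against 49.35, 27.41 and 35.99 RPKM in hESC (-1.03 ± 0.277, adjusted p = 0.0152). NDUFB1, in the same arm, averaged 10.6 ± 2.03 RPKM in neuroectoderm and 18.2 ± 4.11 RPKM in hESC (SD, n = 3 each; log2 difference -0.72). Without hESC 1 both calls were lost, at adjusted p = 0.0578 for NDUFB4 and 0.0745 for NDUFB1. NDUFC1 (-0.66, adjusted p = 0.0175) lost its call without hESC 1 or neuroectoderm 2 (0.0553 and 0.0521), and also without the 3 libraries that stood apart (0.0595). NDUFA5 was at the threshold (-0.53, adjusted p = 0.0491) and lost its call without any of hESC 1, 2 or 3, neuroectoderm 2 or 3, or mesendoderm 1, 2 or 3 (0.0573 to 0.149).

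Complex II oxidises succinate and links the chain to the citric acid cycle. Its membrane anchors SDHC and SDHD were lower in neuroectoderm than in hESC. SDHD had 6.28, 9.63 and 9.79 RPKM in neuroectoderm, against 17.06, 13.67 and 15.63 RPKM in hESC (-0.80 ± 0.192, adjusted p = 0.00879). SDHC had 8.89, 10.59 and 10.71 RPKM in neuroectoderm, against 13.9, 13.13 and 14.04 RPKM in hESC (-0.41 ± 0.104, adjusted p = 0.0113). Neither pair of groups overlapped, and in both genes the low neuroectoderm 1 library was not needed for the call. The flavoprotein SDHA averaged 14.9 ± 6.96 RPKM in neuroectoderm and 19.9 ± 6.74 RPKM in hESC, and the iron-sulfur subunit SDHB 12.5 ± 6.85 RPKM in neuroectoderm and 22.5 ± 7.60 RPKM in hESC (SD, n = 3 each). Neither passed the test with all libraries, and SDHB was called lower without the 3 libraries that stood apart (-0.64, adjusted p = 0.00508).

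Complex IV, cytochrome c oxidase, had 3 lower members beside COX6B2. COX8A, the widely expressed form of its smallest subunit, had 32.17, 61.04 and 61.88 RPKM in neuroectoderm, against 149.09, 83.69 and 134.66 RPKM in hESC. Its level in neuroectoderm was 0.422 of that in hESC and the groups did not overlap (-1.25 ± 0.289, adjusted p = 0.00742). COX7C, another small subunit, had 46.13, 69.76 and 63.22 RPKM in neuroectoderm, against 147.89, 96.75 and 114.68 RPKM in hESC (-0.99 ± 0.248, adjusted p = 0.0107). COX6B1, which faces the intermembrane space, averaged 60.2 ± 14.2 RPKM in neuroectoderm and 90.5 ± 17.9 RPKM in hESC (SD, n = 3 each). Its groups overlapped by a hair, at 73.97 RPKM in neuroectoderm 2 and 73.35 RPKM in hESC 2, and its call (adjusted p = 0.0468) was lost without any of hESC 1 or 3, neuroectoderm 1 or 3, or mesendoderm 1, 2 or 3 (0.0653 to 0.157). COX6B2, a form of the same subunit known from testis, is described with the paralogs.

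Among ATP synthase genes the calls with all libraries were 2 genes of the c subunit, which forms the rotating ring in the membrane. ATP5G1 had 4.7, 13.84 and 10.42 RPKM in neuroectoderm, against 35.93, 20.4 and 31.16 RPKM in hESC. It had the largest fall of all members in this comparison, to 0.331 of the hESC level (-1.57 ± 0.380, adjusted p = 0.00906). ATP5G3 had 23.1, 29.13 and 27.48 RPKM in neuroectoderm, against 40.16, 35.85 and 41.01 RPKM in hESC (-0.54 ± 0.134, adjusted p = 0.00996). Both were called under each alternative run. The 5 genes of the F1 head and central stalk (ATP5A1, ATP5B, ATP5C1, ATP5D, ATP5E) had no call and 5 of 5 differences below 0, and the 4 of the peripheral stalk (ATP5F1, ATP5H, ATP5J, ATP5O) likewise had no call and 4 of 4 below 0. Without the libraries that stood apart ATP5B and ATP5D of the head and stalk (adjusted p = 0.0312 and 0.0428) and ATP5H of the peripheral stalk (0.00379) were lower too. In complex III, UQCRFS1, the Rieske iron-sulfur protein, averaged 21.6 ± 8.46 RPKM in neuroectoderm and 35 ± 5.2 RPKM in hESC without overlap (SD, n = 3 each; adjusted p = 0.0589). It was lower without the libraries that stood apart, as were UQCR10, UQCRB and UQCRH, and UQCRC2 was higher. In all, 15 of 80 members lay below hESC without overlap and none above it, against 26.5% and 25.4% of all tested genes.

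In mesendoderm against hESC few members passed the test, 3 of 80 higher and 1 lower (COX6B2). The background was 17% of tested genes called higher and 18.1% called lower. The median log2 difference was 0.19, with 60 of 80 above 0, against -0.02 over all tested genes. Complexes I and II had no call (2 and 0 members at an unadjusted p under 0.05 by limma, and 7 and 0 called without the libraries that stood apart). Without those libraries 13 members were called higher and 4 lower, against backgrounds of 22.8% and 24.3%, and the median was 0.16. With the covariate 19 were higher and 1 lower, against 22.9% and 24.6%, and with the GC correction 4 and 2 of 77, against 22.3% and 21.3%. The count of higher members was 1 without any of hESC 2 or 3, neuroectoderm 3, or mesendoderm 2 or 3, and 10 without neuroectoderm 1. The count of lower members was 2 without hESC 2 or without neuroectoderm 1. Without overlap, 10 members lay above hESC and 3 below it, against 26.0% and 28.7% of all tested genes.

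The 3 higher members belong to complex III, complex IV and ATP synthase. UQCRHL, a copy of the complex III hinge gene UQCRH, had 7.32, 6.62 and 6.52 RPKM in mesendoderm, against 3.02, 2.55 and 2.7 RPKM in hESC (1.06 ± 0.159, adjusted p = 0.000911). Reads of UQCRHL and UQCRH may be assigned to either, so the value is uncertain. ATP5J2, the f subunit in the membrane part of ATP synthase, had 236.17, 225.91 and 281.75 RPKM in mesendoderm, against 185.86, 96.68 and 134.81 RPKM in hESC (0.87 ± 0.293, adjusted p = 0.0461). Its groups did not overlap, yet the call was lost without any of hESC 2 or 3, neuroectoderm 3, or mesendoderm 1, 2 or 3 (0.0677 to 0.147), and without the 3 libraries that stood apart (0.0565). COX7A2L, a COX7A relative that takes part in joining complexes III and IV into supercomplexes, had 36.01, 37.78 and 36.45 RPKM in mesendoderm, against 30.5, 24.32 and 28.07 RPKM in hESC (0.40 ± 0.134, adjusted p = 0.0443). Leaving out any of those same 6 libraries ended its call (0.0657 to 0.139). Of the members that fell in neuroectoderm, ATP5G1 and COX8A did not pass here: ATP5G1 averaged 27.9 ± 9.10 RPKM in mesendoderm and 29.2 ± 7.96 RPKM in hESC, and COX8A 114 ± 1.49 RPKM in mesendoderm and 122 ± 34.4 RPKM in hESC (SD, n = 3 each). These derived groups share the hESC libraries as their baseline.

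In neuroectoderm against mesendoderm, both at day 5, 27 of 80 members were lower and none higher, in all 5 complexes. They are 33.8% of the tested members, against 24.1% of all tested genes called lower and 24.0% called higher. The median log2 difference was -0.64 and 77 of 80 were below 0, against a median of -0.01 over all tested genes. Without the libraries that stood apart 43 were lower and none higher, against backgrounds of 28.1% and 32.3%, with 74 of 80 below 0 and a median of -0.45. All 27 calls were also made there. With the covariate 56 were lower and 1 higher, against 31.2% and 29.3%, and with the GC correction 33 and 1 of 77, against 28.1% and 28.4%. In the pair of neuroectoderm 1 and mesendoderm 1 alone, 76 of 80 were below 0, against 8202 of all 14473 tested genes. This too is 1 library against 1. Neuroectoderm 1 lay further below its own group than mesendoderm 1 did (median ratios 0.539 and 0.750), so the count is no further support. The calls numbered 8 of 37 in complex I, 3 of 4 in complex II, 4 of 9 in complex III, 6 of 12 in complex IV and 6 of 18 in ATP synthase. Without overlap, 34 members lay lower and 1 (ATP5S) higher in neuroectoderm, against 29.4% and 27.8% of all tested genes. With the replicate number as a block over all 9 libraries 20 were lower. Leaving out mesendoderm 2 or mesendoderm 3 left 11 lower members, and 16 of the 27 calls were lost when some library was left out.

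Since so many members had the same direction, their promoters were read for shared sequence. Promoters of many respiratory genes are bound by NRF1 and by the ETS factor GABPA (also called NRF2 in this literature, and distinct from the NRF2 named in the series title, which is NFE2L2). In the RefSeq promoter table (GRCh38.p14, 250 bases before to 50 after the start, 69 members matched) the NRF1 core CGCATGCG was found on either strand in 10 of 69 members (14.5%), against 2.02% of 35116 promoters. The ETS core CCGGAAGT was found on either strand in 9 of 69 (13%), against 4.14%. The 35116 are all promoters of that table and were not matched to the members in level, coding status or GC content. No test was made of these shares. Of the 27 members lower in neuroectoderm than in mesendoderm, 22 have a promoter in the table and 8 hold a core, against 18 of all 69 members. Those 69 include the 22, and the share of all promoters with either core was not counted. ATP5G1, with the largest fall in this comparison, holds neither core, and ATP5G2, not called with all libraries, holds the NRF1 core. The promoters below were picked from called members that hold a core. Shown is 1 promoter for each complex, upstream of the start and on the gene's strand, with the cores in capitals (ACTTCCGG is the ETS core on the other strand).
NDUFB4: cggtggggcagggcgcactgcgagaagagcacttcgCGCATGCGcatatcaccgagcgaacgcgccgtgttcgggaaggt
SDHD: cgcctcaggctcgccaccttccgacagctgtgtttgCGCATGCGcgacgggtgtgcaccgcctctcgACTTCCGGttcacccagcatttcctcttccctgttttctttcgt
UQCRH: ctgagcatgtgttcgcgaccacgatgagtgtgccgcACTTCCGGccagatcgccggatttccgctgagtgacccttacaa
COX8A: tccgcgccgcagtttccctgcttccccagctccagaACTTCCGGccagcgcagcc
ATP5H: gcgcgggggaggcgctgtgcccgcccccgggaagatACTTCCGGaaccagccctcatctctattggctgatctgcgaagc
They lie at chr3:120596142-120596221 (NDUFB4, plus strand), chr11:112086728-112086838 (SDHD, plus), chr1:46303615-46303694 (UQCRH, plus), chr11:63974565-63974619 (COX8A, plus) and chr17:75047028-75047107 (ATP5H, now ATP5PD, minus) of GRCh38.p14. With an NRF1 core 4 of 10 tested members were lower in neuroectoderm than in mesendoderm (median -0.67), and without it 18 of 55 were (median -0.64). With an ETS core 5 of 9 were lower (median -0.68), and without it 17 of 56 were (median -0.60). These differences were not tested. A match describes these letters and not a bound site.

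Complex I calls between the derived groups were 1 of 7 core subunits, NDUFV2, and 7 of 29 accessory ones, against 24.1% of all tested genes. NDUFB4, whose promoter is shown above with an NRF1 core, had 13.08, 20.48 and 19.61 RPKM in neuroectoderm, against 34.57, 61.76 and 48.68 RPKM in mesendoderm (-1.38 ± 0.277, adjusted p = 0.00304). NDUFV2, which carries an iron-sulfur cluster next to the NADH site, had 9.37, 22.01 and 19.71 RPKM in neuroectoderm, against 25.38, 44.14 and 37.32 RPKM in mesendoderm (-1.07 ± 0.341, adjusted p = 0.0288). Its call was lost without neuroectoderm 1, mesendoderm 2 or mesendoderm 3 (0.0544 to 0.0995), and it was held without the 3 libraries that stood apart (-0.93, adjusted p = 0.000739). NDUFB6 (-1.06, adjusted p = 0.0403) was lost without hESC 3, neuroectoderm 1, mesendoderm 2 or mesendoderm 3 (0.0595 to 0.123), and with the replicate block (0.0686). NDUFS5 (-0.77, adjusted p = 0.00980) and NDUFC1 (-0.72, adjusted p = 0.0104) were called under each alternative run. NDUFB1, NDUFA9 and NDUFA10 had log2 differences of -0.72, -0.64 and -0.45, and each lost its call without mesendoderm 2 or mesendoderm 3 (0.0635 to 0.0962). NDUFA10 also lost it without neuroectoderm 1 or mesendoderm 1 (0.0556 at the lowest), and with the replicate block (0.0586).

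In complex II SDHB, SDHC and SDHD were lower in neuroectoderm than in mesendoderm. SDHB had 4.62, 16.95 and 15.95 RPKM in neuroectoderm, against 21.86, 33.24 and 29.22 RPKM in mesendoderm (-1.26 ± 0.439, adjusted p = 0.0406). The groups did not overlap, but the call was lost without hESC 3, neuroectoderm 1 or mesendoderm 1, 2 or 3 (0.0537 to 0.118), and with the replicate block (0.0589). SDHC averaged 10.1 ± 1.02 RPKM in neuroectoderm and 13.7 ± 0.968 RPKM in mesendoderm (SD, n = 3 each; -0.41, adjusted p = 0.0102). SDHD, with both cores in its promoter, averaged 8.57 ± 1.98 RPKM in neuroectoderm and 13.8 ± 2.68 RPKM in mesendoderm (SD, n = 3 each; -0.64, adjusted p = 0.0226), and lost its call without mesendoderm 2 or 3 (0.0750 and 0.0866). SDHA had 7.14, 20.58 and 17.01 RPKM in neuroectoderm, against 15.21, 24.5 and 21.35 RPKM in mesendoderm, and did not pass.

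Complex III, which passes electrons from ubiquinol to cytochrome c, had 4 of 9 members lower in neuroectoderm than in mesendoderm. UQCRH, the hinge protein that helps cytochrome c dock, had 49.7, 104.93 and 95.15 RPKM in neuroectoderm, against 155.48, 204.34 and 193.45 RPKM in mesendoderm (-1.20 ± 0.359, adjusted p = 0.0219). UQCR10, a small subunit, averaged 19.4 ± 5.99 RPKM in neuroectoderm and 34.9 ± 4.22 RPKM in mesendoderm (SD, n = 3 each; -0.86, adjusted p = 0.0222). Without mesendoderm 2 or 3 both were lost (0.0604 to 0.0754). The copy UQCRHL was lower as well (-1.19, adjusted p = 0.00028). UQCRFS1 (-0.78, adjusted p = 0.0455) was lost without any of hESC 1, 2 or 3 or mesendoderm 1, 2 or 3 (0.0535 to 0.126). The core proteins UQCRC1 and UQCRC2 averaged 75.0 ± 25.6 and 60.3 ± 19.5 RPKM in neuroectoderm, with 104 ± 17.2 and 74.2 ± 2.04 RPKM in mesendoderm (SD, n = 3 each), and did not pass.

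Complex IV had 6 lower members in neuroectoderm against mesendoderm. COX8A had 32.17, 61.04 and 61.88 RPKM in neuroectoderm, against 112.83, 112.55 and 115.26 RPKM in mesendoderm (-1.18 ± 0.289, adjusted p = 0.00882). Mesendoderm 1 did not stand apart for this gene, and the call held under each alternative run. COX5A, a subunit on the matrix side, had 2.97, 8.07 and 6.26 RPKM in neuroectoderm, against 9.9, 16.67 and 13.47 RPKM in mesendoderm (-1.14 ± 0.330, adjusted p = 0.0193). COX5B, also on the matrix side, had 78.55, 114.01 and 97.76 RPKM in neuroectoderm, against 163.74, 165.77 and 170.95 RPKM in mesendoderm (-0.80 ± 0.278, adjusted p = 0.0415). COX6B1, COX7C and COX7A2L had log2 differences of -0.72, -0.71 and -0.40 (adjusted p = 0.0187, 0.0422 and 0.0365). Of these complex IV calls, those of COX5A and COX6B1 were lost without mesendoderm 2 or 3 (0.0544 to 0.0714). COX5B and COX7A2L were lost without hESC 3, neuroectoderm 1 or 3 or mesendoderm 1, 2 or 3 (0.0595 to 0.106), and COX7C without those other than mesendoderm 1 (0.0635 to 0.146). With the replicate block COX5B, COX7A2L and COX7C were also lost (0.0782, 0.0809 and 0.0755).

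ATP synthase had 6 lower members, spread over its parts. ATP5G1 had 4.7, 13.84 and 10.42 RPKM in neuroectoderm, against 18.45, 36.58 and 28.82 RPKM in mesendoderm (-1.5 ± 0.380, adjusted p = 0.0104), and ATP5G3 had a log2 difference of -0.80 (adjusted p = 0.00107). In the peripheral stalk, which holds the head against rotation, ATP5H had 34.38, 58.17 and 49.14 RPKM in neuroectoderm, against 78.78, 117.74 and 103.59 RPKM in mesendoderm (-1.08 ± 0.268, adjusted p = 0.00936). ATP5J, of the same stalk, averaged 17.6 ± 3.06 RPKM in neuroectoderm and 32.2 ± 7.65 RPKM in mesendoderm (SD, n = 3 each; -0.82, adjusted p = 0.00924). ATP5C1, the gamma subunit that turns within the head, averaged 41.8 ± 12.3 RPKM in neuroectoderm and 72.9 ± 6.20 RPKM in mesendoderm (SD, n = 3 each; -0.83, adjusted p = 0.0118). These 5 were called under each alternative run. ATP5J2 (-0.94, adjusted p = 0.0263) was lost without neuroectoderm 1 or 3 or mesendoderm 1, 2 or 3 (0.0519 to 0.0901), and with the replicate block (0.0609). ATP5B and ATP5A1, of the catalytic head, averaged 240 ± 43.6 and 175 ± 57.4 RPKM in neuroectoderm, with 339 ± 44.2 and 224 ± 22.5 RPKM in mesendoderm (SD, n = 3 each), and did not pass.

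The genes of the c subunit differed in pattern. The 3 c subunit genes ATP5G1, ATP5G2 and ATP5G3 encode the same mature protein behind different import sequences. Of their summed RPKM, ATP5G1 made up 10.7%, 12.5% and 11.6% in neuroectoderm, 21.4%, 26.1% and 24.3% in mesendoderm, and 28.7%, 25.2% and 27.6% in hESC. The library that stood apart had the lowest share in each group, and neuroectoderm lay below both other groups without overlap (exact permutation test, two-sided p = 0.1 against either group, the smallest that 3 against 3 libraries allow). ATP5G2 had 16.3, 68.0 and 51.94 RPKM in neuroectoderm, 25.97, 53.15 and 40.77 RPKM in mesendoderm and 48.97, 24.61 and 40.9 RPKM in hESC. Its share averaged 52.0 ± 13.2% in neuroectoderm, 34.2 ± 3.87% in mesendoderm and 35.3 ± 4.43% in hESC (SD, n = 3 each), with overlapping ranges (exact permutation test, two-sided p = 0.2 for neuroectoderm against either group). A ratio within a library shows unequal change and not that ATP5G2 was unchanged.

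**Figure D4:**
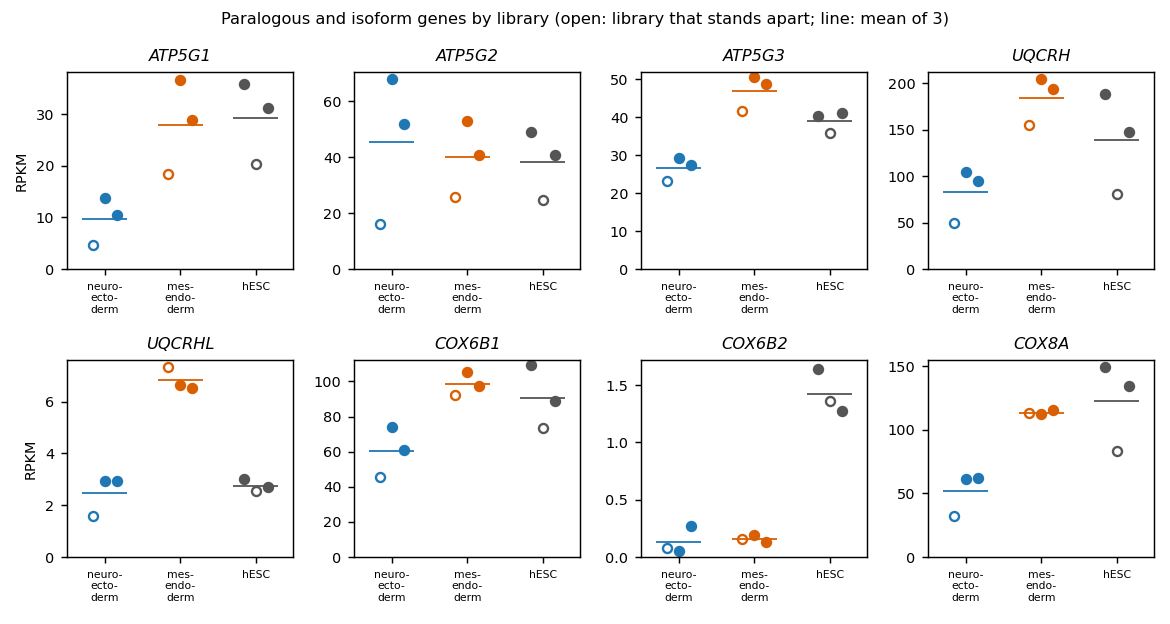
RPKM of 8 members by library, with neuroectoderm left, mesendoderm in the middle and hESC right, a line at the mean of 3 and open points for neuroectoderm 1, mesendoderm 1 and hESC 2. ATP5G1 and COX8A are low in neuroectoderm while ATP5G2 overlaps between groups, COX6B2 is above 1 RPKM in hESC alone, and UQCRHL is highest in mesendoderm.

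COX6B2, the testis form of the COX6B subunit, had 0.08, 0.05 and 0.27 RPKM in neuroectoderm and 0.16, 0.19 and 0.13 RPKM in mesendoderm, against 1.64, 1.36 and 1.27 RPKM in hESC. It was lower in both derived groups on the log2(RPKM + 1) scale (-1.10 ± 0.104, adjusted p = 4.08e-05 in neuroectoderm, and -1.06 ± 0.104, adjusted p = 7e-05 in mesendoderm), but it was tested at all only because its level in hESC lifted its mean to 0.572 RPKM, over the minimum of 0.5, so these tests support nothing beyond the values. The derived groups are near the level of a few reads, since 3 reads on a transcript of 1 kb amount to 0.0433 to 0.0823 RPKM, so no fold is given. COX6B2 made up 0.228 ± 0.192% of COX6B1 and COX6B2 together in neuroectoderm, 0.162 ± 0.0254% in mesendoderm and 1.57 ± 0.221% in hESC (SD, n = 3 each). COX6B1 was nearly all of the COX6B RNA in each group. UQCRHL made up 3.63 ± 0.751% of UQCRH and UQCRHL in mesendoderm and 2.14 ± 0.788% in hESC without overlap, and 2.94 ± 0.205% in neuroectoderm (SD, n = 3 each).

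Among the widely expressed partners of the tissue forms, COX8A and COX6B1 are described above, and COX4I1, COX6A1, COX7A2, COX7B and NDUFA4 passed no comparison with all libraries. COX4I1 had 155.62, 326.69 and 264.78 RPKM in neuroectoderm, 353.21, 368.02 and 366.97 RPKM in mesendoderm and 301.11, 184.96 and 287.08 RPKM in hESC. COX6A1 averaged 107 ± 19.2 RPKM in neuroectoderm, 135 ± 16.5 RPKM in mesendoderm and 151 ± 28.3 RPKM in hESC (SD, n = 3 each), and was lower in neuroectoderm than in hESC without the libraries that stood apart (-0.49, adjusted p = 0.00874). COX7A2 had 22.39, 78.98 and 60.09 RPKM in neuroectoderm, 76.2, 97.71 and 93.6 RPKM in mesendoderm and 71.56, 28.39 and 55.67 RPKM in hESC. Its low values were the libraries that stood apart, and without them it was higher in mesendoderm than in hESC (0.59, adjusted p = 0.0239) and lower in neuroectoderm than in mesendoderm (-0.47, adjusted p = 0.0441). COX7B averaged 28 ± 16.2 RPKM in neuroectoderm, 43.1 ± 15.4 RPKM in mesendoderm and 52.7 ± 25.9 RPKM in hESC, and NDUFA4 17.5 ± 7.19, 32.2 ± 12.1 and 24.1 ± 11.1 RPKM in the same groups (SD, n = 3 each). Without those libraries COX7B was lower in neuroectoderm than in hESC (-0.71, adjusted p = 0.0401) and NDUFA4 lower in neuroectoderm than in mesendoderm (-0.76, adjusted p = 0.0415).

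The tissue forms below the minimum were close to 0 throughout. COX6A2, of heart and skeletal muscle, was listed at 0 in all neuroectoderm libraries and at most at 0.24 RPKM elsewhere. COX4I2, known from lung, did not exceed 0.27 RPKM, COX8C, known from testis, 0.41 RPKM, and COX7B2 0.63 RPKM, each in any library. NDUFA4L2, a hypoxia-responsive relative of NDUFA4, had 0.04, 0.47 and 0.22 RPKM in neuroectoderm, 0.07, 0.09 and 0.12 RPKM in mesendoderm, and 0.04, 0.09 and 0.07 RPKM in hESC. ATP5L2 did not exceed 0.52 RPKM.

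Some members had like means in all groups. NDUFS1, the largest core subunit of complex I, averaged 26.5 ± 1.89 RPKM in neuroectoderm, 26.4 ± 1.44 RPKM in mesendoderm and 28 ± 4.63 RPKM in hESC, and it did not follow the libraries that stood apart (33.07 RPKM in hESC 2 was its highest value). ATP5SL, not a subunit, averaged 30.6 ± 4.8, 31.4 ± 2.13 and 30.7 ± 2.34 RPKM in neuroectoderm, mesendoderm and hESC (SD, n = 3 each). UQCRB, which binds ubiquinone in complex III, averaged 8.76 ± 1.57 RPKM in neuroectoderm, 9.80 ± 0.361 RPKM in mesendoderm and 10.6 ± 0.695 RPKM in hESC (SD, n = 3 each). None of these 3 passed a comparison with all libraries, and UQCRB was lower in neuroectoderm than in hESC without the libraries that stood apart (-0.33, adjusted p = 0.0283).

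The genes around the chain were read from lists of assembly factors, carriers, regulators and citric acid cycle genes, 113 of them tested. Their counts stand against the shares of all tested genes given above: 22.3% lower and 21.9% higher in neuroectoderm against hESC, 18.1% lower and 17% higher in mesendoderm against hESC, and 24.1% lower and 24.0% higher in neuroectoderm against mesendoderm. Counts near these shares are no result about a list. Assembly factors of complex IV were lower in neuroectoderm for 6 of 23 against hESC and 8 of 23 against mesendoderm, with 2 of 23 higher in each, and without the libraries that stood apart for 7 and 12 of 23, against 27.5% and 28.1%. For complex I factors the counts were 4 of 14 lower in each, with none higher. Few factors of the other complexes passed: against hESC, 1 of 4 for complex II and 1 of 6 for complex III were higher in neuroectoderm and 1 of 4 for ATP synthase was lower in mesendoderm. Against hESC in mesendoderm, 2 of 23 complex IV factors were higher and 1 lower, and 1 of 14 complex I factors was higher. Of these, COX14 (higher), LRPPRC (lower) and NDUFAF3 (higher) lost the call when some library was left out. Their adjusted p then ran from 0.0571 to 0.142, 0.0641 to 0.1 and 0.0845 to 0.0978. Median differences of the complex IV list were -0.23 in neuroectoderm against hESC and -0.44 against mesendoderm, and those of the complex I list -0.26 and -0.29. COX17, which delivers copper to complex IV, had 10.25, 12.88 and 10.34 RPKM in neuroectoderm, 23.65, 28.7 and 30.18 RPKM in mesendoderm and 33.72, 22.26 and 23.61 RPKM in hESC. Neuroectoderm was below both groups without overlap (-1.23 ± 0.177, adjusted p = 0.000447 against mesendoderm, and -1.16 ± 0.177, adjusted p = 0.000738 against hESC). COA6, also needed for copper delivery, averaged 6.44 ± 1.16 RPKM in neuroectoderm, 13.3 ± 1.99 RPKM in mesendoderm and 15.8 ± 1.5 RPKM in hESC (SD, n = 3 each) and was called in the same 2 comparisons. SCO2, another copper protein of complex IV assembly, was higher in mesendoderm (11.3 ± 0.822 RPKM) than in hESC (6.11 ± 0.882 RPKM; SD, n = 3 each; 0.79, adjusted p = 0.00764). ATPAF1, which assembles the F1 head, went the other way and was lower in mesendoderm (13.9 ± 0.727 RPKM) than in hESC (23.2 ± 2.01 RPKM; SD, n = 3 each; -0.70, adjusted p = 0.00442). ATPAF1 was also higher in neuroectoderm than in mesendoderm (0.78, adjusted p = 0.00155). UQCC2, a complex III factor, was higher in neuroectoderm (31.5 ± 4.62 RPKM) than in hESC (18.6 ± 4.8 RPKM; SD, n = 3 each; 0.75, adjusted p = 0.0137), a call lost without hESC 3 (0.0563). UQCC2 was also higher in neuroectoderm than in mesendoderm (0.56, adjusted p = 0.0433). That call was lost without hESC 3, neuroectoderm 2 or 3, or mesendoderm 1, 2 or 3 (0.0561 to 0.14).

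Carriers of electrons and nucleotides were lower in neuroectoderm for 6 of 18 against hESC and 8 of 18 against mesendoderm, with 2 and 1 higher, and in mesendoderm against hESC 4 were higher and none lower. Of those 4, COQ2, COQ6 and ETFA lost the call when some library was left out: COQ2 without any of the hESC or mesendoderm libraries or neuroectoderm 2 (adjusted p 0.0508 to 0.138), COQ6 without any of the hESC or mesendoderm libraries (0.0597 to 0.0997), and ETFA without hESC 1 or 3 or mesendoderm 2 or 3 (0.0503 to 0.0551). CYCS, cytochrome c, had 3.71, 3.49 and 3.75 RPKM in neuroectoderm, 6.55, 8.51 and 8.27 RPKM in mesendoderm and 9.97, 8.22 and 8.65 RPKM in hESC. The neuroectoderm libraries, including neuroectoderm 1, were nearly alike (-1.09 ± 0.116, adjusted p = 8e-05 against hESC). VDAC1, the main channel of the outer membrane, had 26.49, 37.44 and 35.85 RPKM in neuroectoderm, 72.81, 77.43 and 80.57 RPKM in mesendoderm and 64.79, 55.92 and 69.82 RPKM in hESC (-1.20 ± 0.159, adjusted p = 0.000269 against mesendoderm, and -0.92 ± 0.159, adjusted p = 0.00151 against hESC). VDAC2 was lower in neuroectoderm in the same 2 comparisons. SLC25A5, an ADP and ATP carrier of the inner membrane, averaged 48.2 ± 26.1 RPKM in neuroectoderm and 141 ± 26.9 RPKM in mesendoderm (SD, n = 3 each; -1.70 ± 0.429, adjusted p = 0.0101).

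The PGC-1 coactivators, which act on genes of mitochondrial biogenesis, changed in opposite directions in both lineages. PPARGC1A had 1.8, 1.25 and 1.62 RPKM in neuroectoderm and 2.19, 1.7 and 1.92 RPKM in mesendoderm, against 0.25, 0.63 and 0.26 RPKM in hESC, and was higher in both (0.89 ± 0.136, adjusted p = 0.000721, and 1.10 ± 0.136, adjusted p = 0.000286). PPARGC1B had 0.42, 0.53 and 0.47 RPKM in neuroectoderm and 0.58, 0.71 and 0.59 RPKM in mesendoderm, against 2.12, 2.32 and 2.36 RPKM in hESC, and was lower in both (-1.15 ± 0.0819, adjusted p = 7.22e-06, and -1.01 ± 0.0819, adjusted p = 2.28e-05). PPRC1 averaged 9.67 ± 0.322 RPKM in neuroectoderm and 12.8 ± 0.584 RPKM in mesendoderm, against 20.2 ± 1.79 RPKM in hESC (SD, n = 3 each), and was lower in both. For PPARGC1A hESC 2 was the highest hESC library, and still below every derived one. Of 18 regulators of mitochondrial gene expression, 2 were higher and 6 lower in neuroectoderm, and 1 higher and 3 lower in mesendoderm, against hESC, where the shares of all tested genes were 21.9% and 22.3%, and 17% and 18.1%.

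**Figure D5:**
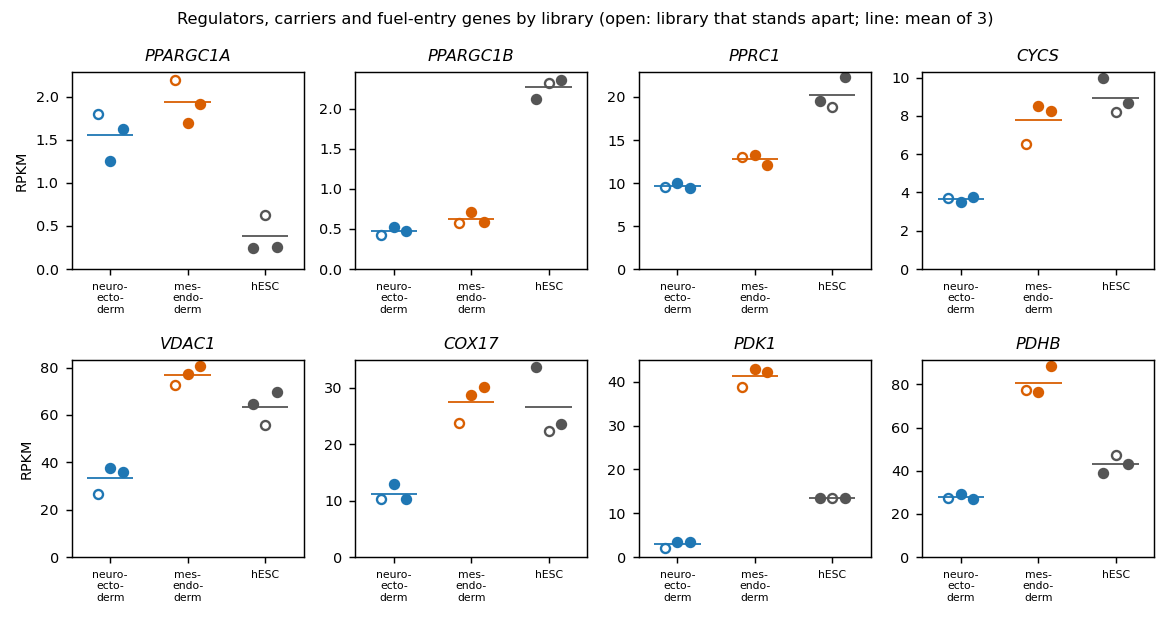
RPKM of 8 genes around the respiratory chain by library, with neuroectoderm left, mesendoderm in the middle and hESC right, a line at the mean of 3 and open points for neuroectoderm 1, mesendoderm 1 and hESC 2. PPARGC1A is above hESC in both lineages and PPARGC1B below it, while PDK1 and PDHB are highest in mesendoderm and lowest in neuroectoderm.

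Single genes of fuel entry differed in both lineages. Of 26 citric acid cycle and pyruvate genes, 8 were lower and none higher in neuroectoderm against hESC, 6 were higher and 2 lower in mesendoderm against hESC, and 12 were lower and 1 higher in neuroectoderm against mesendoderm. The shares of all tested genes in these directions were 22.3% and 21.9%, 17% and 18.1%, and 24.1% and 24.0%, and no list was tested against them. Without the libraries that stood apart, 9 were lower and 4 higher in neuroectoderm against hESC, where the shares were 27.5% and 30.7%. In mesendoderm against hESC 10 were then higher and 4 lower (22.8% and 24.3%). In neuroectoderm against mesendoderm 14 were lower and 3 higher (28.1% and 32.3%). PDK1, the kinase that inhibits pyruvate dehydrogenase, had 2.11, 3.35 and 3.38 RPKM in neuroectoderm, 38.74, 42.95 and 42.25 RPKM in mesendoderm and 13.43, 13.45 and 13.46 RPKM in hESC. It was lower in neuroectoderm (-1.89 ± 0.139, adjusted p = 8.74e-06) and higher in mesendoderm (1.55 ± 0.139, adjusted p = 4.21e-05) than in hESC. PDHB, a subunit of pyruvate dehydrogenase itself, had 27.48, 29.34 and 26.97 RPKM in neuroectoderm, against 77.33, 76.24 and 88.27 RPKM in mesendoderm (-1.49 ± 0.123, adjusted p = 1.23e-05). IDH3A, of the NAD-dependent isocitrate dehydrogenase, averaged 2.74 ± 0.517 RPKM in neuroectoderm and 10.2 ± 1.15 RPKM in mesendoderm (SD, n = 3 each; -1.59, adjusted p = 1.45e-05). SUCLG1, of succinyl-CoA ligase, averaged 27.8 ± 3.81 RPKM in mesendoderm and 13.9 ± 1.03 RPKM in hESC (SD, n = 3 each; 0.95, adjusted p = 0.000582). PDHB and its inhibitor PDK1 were thus both higher in mesendoderm, and enzyme activity was not measured.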

How the data were processed

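RNA of 9 libraries was analysed from 1 table of RPKM values that the authors computed and deposited for 38759 RefSeq transcripts. Per the labels' protocols, total RNA was depleted of ribosomal RNA and made into Ion Torrent libraries. Reads were aligned to hg19 with tools that include TopHat2 2.0.13 and Bowtie2, per the submitters' processing notes. How reads were counted, by strand or at several matches, is not given in the sources used here, so copies of a gene were read as uncertain. Whole-read steps in the low values (93.4% to 96.6% of 183 to 234 values within 0.1 of a read) correspond to denominators of 36.5 to 69.3 M reads, and floors cover counting error only.

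For each symbol the transcript of highest mean was kept, and 33 of the members have several transcripts. Values were tested as log2(RPKM + 1), which understates changes of low genes, by limma (version 3.58.1, R 4.3.3, trend on), for every gene whose mean reached 0.5 RPKM. One model held the 9 libraries, and p-values were adjusted by Benjamini-Hochberg over the 14473 genes. The script was tested on simulated data. Complexes were assigned by symbol. GC contents came from GENCODE 29 transcripts and are approximate. Members and lists were chosen with earlier results of these data known. Of 129 list entries, 115 were matched, 4 of them through another symbol. The 13 genes of mitochondrial DNA were among those not matched. Members were described per complex by the most abundant, up to 3 largest changes in each direction, paralog groups and SDH genes, and list genes by the 3 largest changes; others were named after their values were seen. The replicate numbers were checked by correlating deviations from the group means. Same-numbered libraries had r = 0.392, 0.247 and 0.229 between neuroectoderm and mesendoderm, all above 0.1. The numbers were therefore read as a possible pairing of those libraries. This comes from the data and not from the labels, and the check cannot tell numbers 2 and 3 apart. Neuroectoderm 3 correlated slightly more with mesendoderm 2 (0.241), and neuroectoderm 2 with mesendoderm 3 was above 0.1 too (0.152). Neuroectoderm 1 and mesendoderm 1 are both libraries that stood apart. Between same-numbered libraries of hESC and the derived groups r ran from -0.738 to 0.401, and those numbers were not read as pairs. Across numbers, hESC 2, which also stood apart, had r = 0.787 with neuroectoderm 1 and 0.404 with mesendoderm 1. Both are above every same-numbered value between the derived groups, so an r above 0.1 does not show a pairing. The fit with the replicate number as a block still held the hESC libraries by their numbers.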

Additional observations from a re-analysis of the deposited data

How the results depend on the processing

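Members called lower in neuroectoderm against hESC numbered 21 with small RNA genes left out and the libraries rescaled, and 31 without the 3 libraries that stood apart. They numbered 37 with that library set as a covariate and 20 with a correction for GC content, which was chosen after seeing the data. Leaving out 1 library gave 8 to 19. The share of all tested genes called lower rose too, from 22.3% to 27.5% without the 3 libraries, 28.7% with the covariate and 25.5% with the GC correction. Members called higher there numbered 2 without the 3 libraries (30.7% of all tested genes), and 0 to 1 with 1 library left out. In mesendoderm against hESC, higher members numbered 8 in a fit of only those groups, 13 without the 3 libraries and 19 with the covariate (1 to 10 with 1 library left out). Lower members numbered 2, 4 and 1 in these fits, with 2 after GC correction (1 to 2 with 1 left out). Of all tested genes, 22.8% were higher without the 3 libraries and 22.9% with the covariate. The shares lower were 24.3% and 24.6%, and 21.3% after GC correction. In neuroectoderm against mesendoderm, lower members numbered 43 without the 3 libraries and 56 with the covariate (11 to 32 with 1 left out). There, 1 member was called higher with the covariate or the GC correction (0 to 0 with 1 left out). Of all tested genes, 28.1% were lower without the 3 libraries and 31.2% with the covariate, against 24.1% with all libraries. The shares higher were 29.3% with the covariate and 28.4% with the GC correction. NDUFA1 alone reversed with a call: its log2 difference in neuroectoderm against hESC was 0.38 without the 3 libraries (adjusted p = 0.0163). The causes of these changes were not tested. For the other settings, among them the block and the fits with 1 library left out, the share of all tested genes was not counted. Those counts, here and in the results, therefore show only how the calls of members move.

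The block of replicate numbers held all 9 libraries, so it also tied same-numbered hESC libraries, whose numbers were not read as pairs. Its counts therefore do not measure a possible pairing of the derived groups alone. With this block the counts were 11 lower in neuroectoderm and 1 higher and 1 lower in mesendoderm against hESC. In neuroectoderm against mesendoderm 20 were lower, where the block ended the 7 calls named in the results and changed no other member's call. Over 5825 pairs of a gene's comparison and an alternative, 5425 kept their side of the threshold, 212 gained and 187 lost the call; 192 had another sign than with the settings reported, and of these 1 was called in either. Having 3 libraries a group and RPKM rounded to 2 decimals limit what can be said of members near the floor.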
